A study of Mus musculus with 6 samples.

Results

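The stress axis and the genes that answer to glucocorticoids were examined here through 10 genes, taken by symbol from a hippocampal RNA-seq table of 16060 rows. The members were Crh, Crhr1, Crhbp, Nr3c1, Nr3c2, Hsd11b1, Fkbp5, Sgk1, Tsc22d3 and Klf9. All 10 were found once each, and all 10 passed the filter on low values that left 13321 genes for the test. The hippocampus of 3 control mice and 3 mice given methamphetamine (MA) was sequenced, with 1 library per mouse. All were adult male mice of the C57BL/6 strain. MA was given in escalating doses, 5 mg/kg in week 1, 10 mg/kg in week 2 and 15 mg/kg in week 3, and the Control mice were injected intraperitoneally with saline. Open field and elevated plus maze tests followed on day 22, and tissue was taken once they were done. Both groups thus share the injections and the tests. MA and Control mean here the libraries so labelled. The sources used here differ on the direction of several immediate early genes, so it is in doubt whether the column names carry the right group, and if they were exchanged every sign given here would turn.

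Corticotropin-releasing hormone, encoded by Crh, is the peptide with which the hypothalamus starts the hormonal stress response, and in the hippocampus it is made by interneurons and acts locally on excitatory cells. The response ends in the release of glucocorticoids from the adrenal gland, which enter the brain and bind a pair of nuclear receptors, the mineralocorticoid receptor (Nr3c2) with high affinity and the glucocorticoid receptor (Nr3c1) with lower affinity. The bound receptors move to the nucleus and raise or lower transcription, and the hippocampus is known for holding both of them and for taking part in the feedback that ends the response.

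The values are RPKM, read counts scaled by gene length and library size, on a log scale read as log2(RPKM + 1), and without read totals the sequencing depth is unknown. Across tested genes, which are not independent replicates, Control libraries correlated with their own group at a mean Pearson's r of 0.991 to 0.993, and MA replicates 1, 2 and 3 at 0.984, 0.985 and 0.978. All 6 markers of hippocampal excitatory neurons were tested, with a summed level of 1342 to 1457 RPKM in Control and 1155 to 1708 in MA, and 2 of them were lower in MA at an unadjusted p under 0.05 (limma). Markers of other tissue differed between the groups. The 6 markers of choroid plexus epithelium summed to between 64.8 and 419 RPKM in Control and between 1774 and 5081 in MA, and all 6 were higher in MA at an unadjusted p under 0.05 (limma). The 5 red blood cell genes summed to between 1599 and 2024 RPKM in Control and between 3319 and 4378 in MA, all 5 higher at the same threshold. The 5 thalamic markers summed to between 15.7 and 22.3 RPKM in Control and between 15.4 and 50.9 in MA, and 0 of them passed that threshold. The 6 hypothalamic markers summed to between 1.47 and 1.96 RPKM in Control and between 2.41 and 2.97 in MA, without overlap. Of them, 1 was tested and 0 passed that threshold, and Agrp and Hcrt were under the minimum of 0.5 RPKM in all 6 libraries. The markers did not move together. Trh moved most, from a mean of 0.18 RPKM in Control to 1.09 in MA. Agrp, Avp and Oxt also had higher means in MA, and Hcrt and Pmch had lower ones. Interneuron markers summed to between 1991 and 2299 RPKM in Control and between 1800 and 2032 in MA, with 0 of 8 at an unadjusted p under 0.05 and 7 of 8 below Control. The part of these differences in the results given here was not tested. In whole tissue, fewer cells of a type and less RNA per cell cannot be told apart.

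Among the 10 members, Hsd11b1, Crhr1 and Crhbp were lower in MA and did not overlap Control, whereas Fkbp5 and Sgk1 lay higher in MA on average with overlapping groups. At an unadjusted p under 0.05 (limma), 3 members were lower in MA and 0 were higher. The background was 10.4% of all tested genes at this threshold, 5.46% lower and 4.99% higher. At an adjusted p under 0.05 (limma with Benjamini-Hochberg adjustment over all tested genes), 0 of the 10 members passed, against a background of 0.263%, 0.0976% lower and 0.165% higher. The groups did not overlap in 3 members, all lower in MA, and in 17.5% of all tested genes, 10.2% lower and 7.32% higher in MA. The median difference of the members was -0.14 on the log2 scale, and that of all tested genes was -0.010. The count of 3 became 1 without Control replicate 3 or without MA replicate 2, Hsd11b1 in both, and 2 without Control replicate 1. Without MA replicate 1 it was 3 lower, with Nr3c1 in place of Crhbp, and 1 higher, Fkbp5. Without MA replicate 3 it was the same 3 lower and 1 higher, Klf9. Without Control replicate 2 it was 1 lower, Hsd11b1, and 2 higher, Fkbp5 and Sgk1. Of all tested genes, 6.22%, 6.84% and 7.59% had an unadjusted p under 0.05 (limma) without Control replicate 1, 2 or 3. The shares were 8.69%, 7.74% and 23.3% without MA replicate 1, 2 or 3. For a single gene, the smallest two-sided p an exact permutation test allows with these libraries is 0.1.

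**Figure D1:**
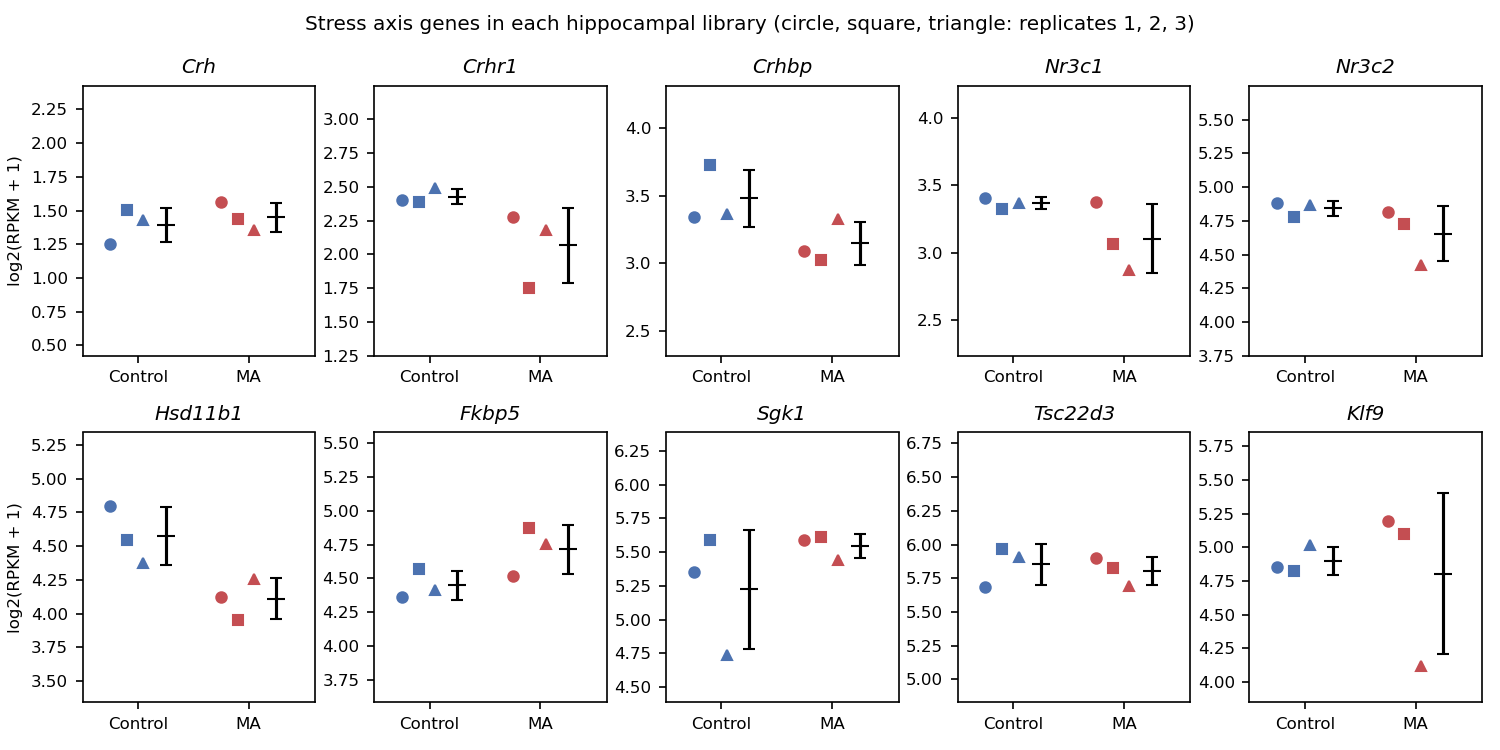
Level of each of the 10 genes in each library, as log2(RPKM + 1), every panel spanning the same 2 units, with Control in blue, MA in red and the mean with its SD (n = 3) in black. For Hsd11b1, Crhr1 and Crhbp all 3 MA libraries sit below all 3 Control libraries, and for Klf9 MA replicate 3 sits at 4.12, below the other 5 libraries.

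Crh itself did not differ detectably between the groups. Crh (ENSMUSG00000049796), on chromosome 3, had levels of 1.385, 1.829 and 1.696 RPKM in Control replicates 1, 2 and 3 and of 1.955, 1.705 and 1.553 RPKM in MA replicates 1, 2 and 3. The values of the groups interleaved, and the highest and the lowest belonged to MA replicate 1 and Control replicate 1. On the log2 scale the means were 1.40 ± 0.13 and 1.45 ± 0.11 (SD, n = 3 each), a difference of 0.055 with a 95% confidence interval from -0.22 to 0.33 (limma adjusted p = 0.917). Crh was the least abundant member, with a mean of 1.69 RPKM over the 6 libraries.

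Transcripts of the main CRH receptor and of the CRH-binding protein were both lower in MA. Crhr1 (ENSMUSG00000018634, chromosome 11 of GRCm38 from 104132855 to 104175523) encodes the receptor through which CRH acts on hippocampal excitatory cells. It was 2.40, 2.39 and 2.49 on the log2 scale in Control replicates 1, 2 and 3 and 2.27, 1.75 and 2.18 in the MA replicates. All 3 MA libraries were below all Control libraries, and MA replicate 2 was the lowest of the 6. The means were 2.43 ± 0.05 and 2.07 ± 0.28 (SD, n = 3 each), or 4.38 and 3.24 RPKM. The difference was -0.36 (standard error 0.15, limma unadjusted p = 0.0455 and adjusted p = 0.466). Without MA replicate 2 it was -0.20, and the unadjusted p stayed under 0.05 in the fits without MA replicate 1 or 3 and not in the other 4 that left out 1 library.

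Crhbp (ENSMUSG00000021680, chromosome 13 from 95431371 to 95444924) encodes a secreted protein that binds CRH and limits its access to the receptor. Its log2 values were 3.34, 3.73 and 3.37 in Control replicates 1, 2 and 3 and 3.09, 3.02 and 3.33 in the MA replicates. The groups did not overlap, but MA replicate 3 and Control replicate 1 were nearly equal. The means were 3.48 ± 0.21 and 3.15 ± 0.16 (SD, n = 3 each), or 10.2 and 7.89 RPKM, a difference of -0.33 (standard error 0.14, limma unadjusted p = 0.0454 and adjusted p = 0.466). Without Control replicate 2, the highest library, the difference was -0.21, and the unadjusted p stayed under 0.05 in the fits without Control replicate 1 or MA replicate 3 alone among those that left out 1 library. With the replicate number as a block, neither Crhr1 (unadjusted p = 0.0561, limma) nor Crhbp (0.0867) passed it.

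Hsd11b1 had the smallest p-value of the members. Hsd11b1 (ENSMUSG00000016194, chromosome 1 from 193221634 to 193264075) encodes the enzyme that turns inert 11-dehydrocorticosterone back into active corticosterone inside cells. It was 4.80, 4.55 and 4.37 on the log2 scale in Control replicates 1, 2 and 3 and 4.12, 3.96 and 4.26 in the MA replicates. All MA libraries were below all Control libraries, with Control replicate 3 and MA replicate 3 closest to each other. The means were 4.57 ± 0.21 and 4.11 ± 0.15 (SD, n = 3 each), or 23.0 and 16.4 RPKM. The difference was -0.46 (standard error 0.13, 95% confidence interval from -0.77 to -0.15, limma unadjusted p = 0.00962 and adjusted p = 0.304). Its rank by p was 421 among the 13321 tested genes. The unadjusted p was under 0.05 in all 15 alternative fits (limma), and the difference ranged from -0.56 to -0.35 over them. Several of these fits stay close to the main one. With no filter, a mean of at least 5 RPKM, no trend or the replicate block the difference is the same by construction. Median centring and quantile normalization left it at -0.46, in values that already had a common distribution. The adjusted p ranged from 0.0404 to 0.757, and only limma's sample quality weights brought it under 0.05. Hsd11b2, which encodes the enzyme of the opposite reaction and was named here for that role, was listed at 0 in all 3 Control libraries and at no more than 0.0473 on the log2 scale in MA. H6pd, which supplies the cofactor of the Hsd11b1 enzyme, had a difference of 0.081 (limma adjusted p = 0.871).

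**Figure D2:**
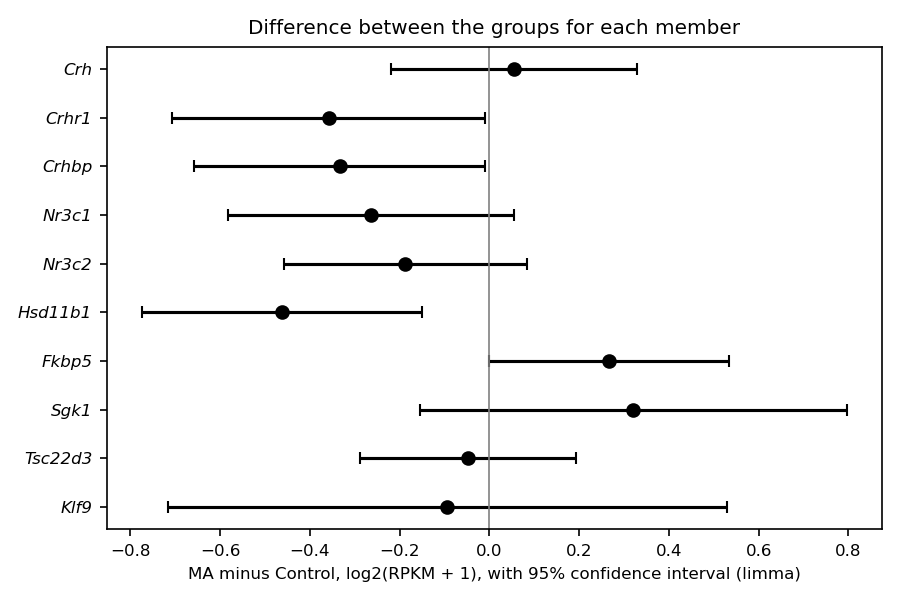
Difference of the group means (MA minus Control, log2 scale) of each of the 10 genes, with limma's 95% confidence interval as bars. The intervals of Hsd11b1, Crhr1 and Crhbp lie below 0, and that of Fkbp5 reaches from -0.00071 to 0.54.

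Both corticosteroid receptor genes had lower means in MA, but their groups overlapped and neither passed a threshold. Nr3c1 (ENSMUSG00000024431, chromosome 18) was 3.41, 3.32 and 3.37 on the log2 scale in Control replicates 1, 2 and 3 and 3.37, 3.06 and 2.87 in the MA replicates. MA replicate 1 lay among the Control libraries, and MA replicates 2 and 3 were below them. The difference was -0.26 (standard error 0.14, limma unadjusted p = 0.0923 and adjusted p = 0.568). Without MA replicate 1 it was -0.40 with an unadjusted p of 0.00990 (limma), and without MA replicate 3 it was -0.15. Nr3c2 (ENSMUSG00000031618, chromosome 8), which shares exonic bases with the antisense gene Gm10649 in a count whose strand setting is not stated, was 4.88, 4.78 and 4.87 in Control and 4.82, 4.73 and 4.43 in MA replicates 1, 2 and 3. Only MA replicate 3 stood clearly below the other libraries. The difference was -0.19 (standard error 0.12, limma adjusted p = 0.639), and without MA replicate 3 it was -0.071. In RPKM, the level of Nr3c2 was 2.98 ± 0.05 times that of Nr3c1 in Control and 3.20 ± 0.28 times in MA (SD, n = 3 each, exact permutation test, two-sided, p = 0.4, and 0.4 after Benjamini-Hochberg adjustment over 4 ratios chosen after the values were seen). In every library the transcript of Nr3c2 was thus the more abundant of the pair per length.

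The 4 glucocorticoid-responsive members went different ways. Fkbp5 (ENSMUSG00000024222, chromosome 17) encodes a co-chaperone that holds the glucocorticoid receptor in a state of low affinity and is itself induced by the receptor. It was 4.36, 4.57 and 4.41 on the log2 scale in Control replicates 1, 2 and 3 and 4.52, 4.87 and 4.75 in the MA replicates. MA replicates 2 and 3 were above all Control libraries, and MA replicate 1 was below Control replicate 2. The means were 4.45 ± 0.11 and 4.71 ± 0.18 (SD, n = 3 each), or 20.9 and 25.4 RPKM. The difference was 0.27 (standard error 0.11, limma unadjusted p = 0.0505 and adjusted p = 0.478). It stayed between 0.19 and 0.37 with each library left out in turn.

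Sgk1 (ENSMUSG00000019970, chromosome 10) encodes a kinase that acts on ion channels and transporters and is rapidly induced by corticosteroids. Its log2 values were 5.36, 5.59 and 4.73 in Control replicates 1, 2 and 3 and 5.59, 5.61 and 5.44 in the MA replicates. Control replicate 3 stood apart at the low end, while the other 5 libraries lay within 5.36 and 5.61. The difference of 0.32 had a standard error of 0.20 (limma unadjusted p = 0.156 and adjusted p = 0.651). Without Control replicate 3 it was 0.075. Without Control replicate 2 it was 0.50, with an unadjusted p of 0.0350 and an adjusted p of 0.702 (limma).

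Tsc22d3 (ENSMUSG00000031431, chromosome X) encodes GILZ, a leucine zipper protein with anti-inflammatory action that glucocorticoids induce. It was 5.68, 5.97 and 5.91 on the log2 scale in Control replicates 1, 2 and 3 and 5.90, 5.82 and 5.70 in the MA replicates. The groups lay within the same range, and the difference was -0.047 (95% confidence interval from -0.29 to 0.19, limma adjusted p = 0.919). It was 0.0095 without Control replicate 2 and 0.0084 without MA replicate 3.

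Klf9 (ENSMUSG00000033863, chromosome 19) encodes a zinc finger transcription factor induced by glucocorticoids and thyroid hormone in neurons. Its log2 values were 4.86, 4.82 and 5.01 in Control replicates 1, 2 and 3 and 5.19, 5.10 and 4.12 in the MA replicates. MA replicates 1 and 2 were above every Control library, and MA replicate 3 was below every one. The difference was -0.094 with a wide 95% confidence interval from -0.72 to 0.53 (limma adjusted p = 0.939). Without MA replicate 3 it was 0.25 (limma unadjusted p = 0.0213 and adjusted p = 0.146), and with sample quality weights it was 0.18, so the direction of Klf9 rested on MA replicate 3. That library lay 1.03 below the mean of the other 2 MA libraries for Klf9, and 2.66% of all tested genes lay at least 0.9 from that mean in it, in either direction.

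**Figure D3:**
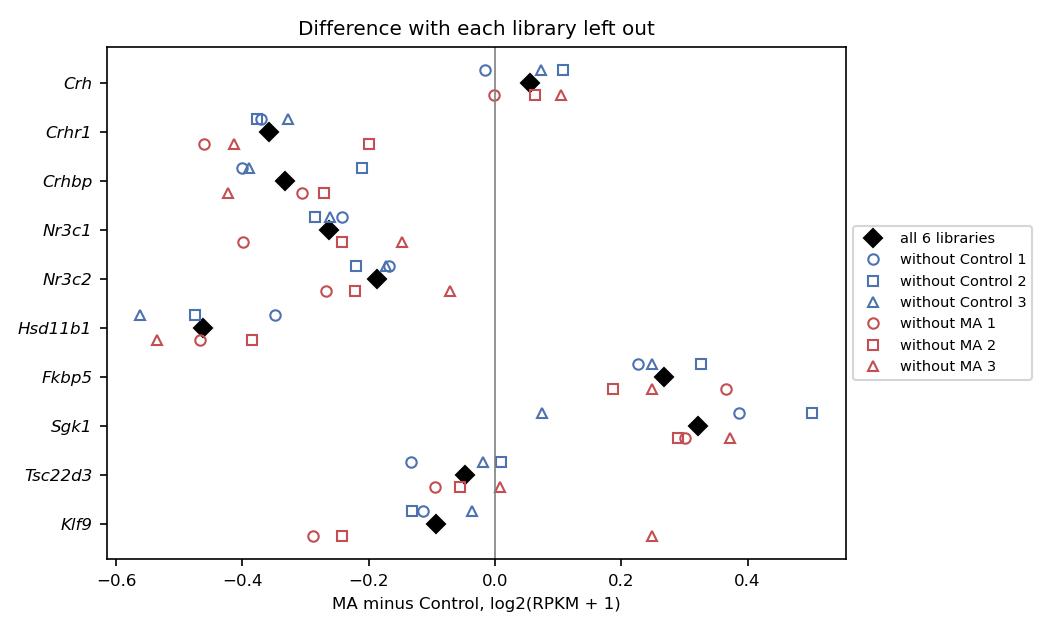
Difference of the group means (MA minus Control, log2 scale) of each gene with all 6 libraries (black diamonds) and with each library left out in turn (open symbols). Hsd11b1, Crhr1, Crhbp, Nr3c1 and Nr3c2 stay below 0 and Fkbp5 and Sgk1 above 0, while Klf9 turns from -0.094 to 0.25 without MA replicate 3. Hsd11b1, Crhr1 and Crhbp could not cross 0 here, as their groups do not overlap.

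The receptors act on DNA through the glucocorticoid response element (GRE), a palindrome in which AGAACA, any 3 bases and TGTTCT follow each other. RefSeq promoter windows of GRCm38.p6, which reach from 250 bases before to 50 bases after a transcript start, were found for 8 of the 10 members, 15 windows in all, and were searched on both strands. Windows of Crh and Nr3c1 were not used here. The full palindrome was found in 1 member window, that of an internal start of Sgk1 at position 21993890, and in 0.00913% of the 32851 windows of all genes (3 windows, the others belonging to Acnat2 and Gm35041, which were not analysed here). A looser form, GNACA, any 3 bases and TGTNC, which overlaps it, was found in the same member window alone and in 0.475% of all windows. The hexamer TGTTCT alone stood in 4 member windows, 3 of Sgk1 and 1 of Tsc22d3, and in 19% of all windows. The GC box GGGCGG stood in 7 member windows and in 35.7% of all windows, and TGACG, the core of the cAMP response element, stood in 4 member windows and in 20.8% of all windows. Sgk1, Fkbp5 and Klf9 are shown because their windows set the GRE of one glucocorticoid-responsive gene beside windows of others without these letters. GREs of Fkbp5 are known from introns and distant sites. The stretches end 1 base before the start, each is 250 bases long, and they overlap no annotated exon. They are chr10:21993640-21993889 on the plus strand for Sgk1, chr17:28486150-28486399 on the minus strand for Fkbp5 and chr19:23140976-23141225 on the plus strand for Klf9. Capitals mark the GRE palindrome in Sgk1, which begins at position -189 from the start, the GC boxes in Fkbp5 and TGACG in Klf9.
Sgk1: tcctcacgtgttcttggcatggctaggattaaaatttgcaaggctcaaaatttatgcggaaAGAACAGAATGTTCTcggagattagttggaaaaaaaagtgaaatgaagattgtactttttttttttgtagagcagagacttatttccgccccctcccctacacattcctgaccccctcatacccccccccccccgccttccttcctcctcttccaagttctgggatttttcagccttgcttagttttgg
Fkbp5: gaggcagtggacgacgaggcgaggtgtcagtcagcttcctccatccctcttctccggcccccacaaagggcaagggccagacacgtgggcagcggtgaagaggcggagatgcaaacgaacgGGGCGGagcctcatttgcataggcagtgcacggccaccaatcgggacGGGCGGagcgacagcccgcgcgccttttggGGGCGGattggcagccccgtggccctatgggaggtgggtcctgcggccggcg
Klf9: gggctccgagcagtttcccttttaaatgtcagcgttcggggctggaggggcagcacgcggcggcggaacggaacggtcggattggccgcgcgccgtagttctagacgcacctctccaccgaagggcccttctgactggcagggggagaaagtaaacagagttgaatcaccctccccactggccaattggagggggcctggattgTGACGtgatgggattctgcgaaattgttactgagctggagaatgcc
A match is a description of letters and not of binding. The table holds 1 value per gene and does not tell the starts of Sgk1 apart.

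By mean level per length over the 6 libraries, the order was Tsc22d3 (56.0 RPKM), Sgk1 (41.7), Klf9 (28.6), Nr3c2 (26.1), Fkbp5 (23.1), Hsd11b1 (19.7), Crhbp (9.06), Nr3c1 (8.49), Crhr1 (3.81) and Crh (1.69). Tsc22d3 exceeded Sgk1, Hsd11b1 exceeded Crhbp, Nr3c1 exceeded Crhr1, and Crhr1 exceeded Crh in 6 of 6 libraries. Other neighbours changed places between libraries. Klf9 exceeded Nr3c2 in 4 of 6, Nr3c2 exceeded Fkbp5 in 4 of 6, and Crhbp exceeded Nr3c1 in 2 of 6. In RPKM, the level of Crhbp was 6.26 ± 0.67 times that of Crh in Control and 4.61 ± 1.05 times in MA (SD, n = 3 each, exact permutation test, two-sided, p = 0.2, or 0.267 adjusted over the 4 ratios). The level of Crhr1 was 2.71 ± 0.39 times that of Crh in Control and 1.87 ± 0.45 times in MA, with no overlap (exact permutation test, two-sided, p = 0.1, adjusted 0.267). The level of Fkbp5 was 2.25 ± 0.25 times that of Nr3c1 in Control and 3.43 ± 0.96 times in MA (exact permutation test, two-sided, p = 0.2, adjusted 0.267).

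Over the 6 libraries, the tested genes with the pattern most like a member were Dbp for Crhr1 (Pearson's r = 0.998), Erlin1 for Hsd11b1 (r = 0.995), Ncl for Crhbp (r = 0.991) and Adam33 for Crh (r = 0.993). They were Ttc19 for Nr3c1 (r = 0.993) and Rap2a for Nr3c2 (r = 0.999), and among the responsive genes Ninj1 for Fkbp5 (r = 0.984), Lig3 for Sgk1 (r = 0.981), Shh for Tsc22d3 (r = 0.990) and Ccdc50 for Klf9 (r = 0.998). Each is the highest value over all other tested genes, over 6 points that share libraries and groups, and are given as likeness only. At least 0.95 was reached by 415 genes for Klf9 and by 7 for Sgk1.

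Genes that fold and serve the receptors lay mostly below Control in MA. Of 18 chaperones and coregulators of steroid receptors, 16 were below Control, as were 7025 of the 13321 tested genes. At an unadjusted p under 0.05 (limma), 5 were lower and 0 higher, against a background of 5.46% lower and 4.99% higher. The median difference of the 18 was -0.13, and 0 passed the adjusted threshold. Fkbp4 encodes the co-chaperone that competes with the Fkbp5 product and favors receptor activation. It was 6.40, 6.34 and 6.52 on the log2 scale in Control replicates 1, 2 and 3 and 6.04, 6.01 and 6.13 in the MA replicates, with no overlap. Its difference was -0.36 (standard error 0.082, limma adjusted p = 0.211), opposite in sign to that of Fkbp5. Stip1, which passes clients from Hsp70 to Hsp90, and Hspa8, the constitutive Hsp70, had differences of -0.27 and -0.28 without overlap (limma adjusted p = 0.277 and 0.292). Ptges3, the p23 co-chaperone, and Ppid, another immunophilin of the receptor complex, had differences of -0.28 and -0.19 (limma adjusted p = 0.440 and 0.473), with overlapping groups for Ptges3. Hspa8 and Ptges3 have processed copies in the genome between which reads could be split. The count of 5 fell to 3 with the replicate block and in each fit that left out 1 library other than MA replicate 3, where it was 6. The unadjusted threshold was passed by 6.32% of all tested genes with the replicate block and by 23.3% without MA replicate 3. The share was 6.22% to 8.69% with any other library left out.

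Other genes known to be induced by glucocorticoids lay on both sides of Control. Of 32 such genes, 6 were higher and 4 lower in MA at an unadjusted p under 0.05, with a median difference of 0.13, against a background of 4.99% higher and 5.46% lower. The adjusted threshold was passed by 2 of them (limma), against a background of 0.263%. Sult1a1, a phenol sulfotransferase, was 3.30, 3.53 and 3.30 on the log2 scale in Control replicates 1, 2 and 3 and 4.23, 4.49 and 4.35 in the MA replicates. It rose by 0.98 (standard error 0.11, limma adjusted p = 0.0315). Plin4, which coats lipid droplets, was 0.96, 1.41 and 0.99 in Control and 2.18, 2.38 and 2.61 in MA replicates 1, 2 and 3. It rose by 1.27 (standard error 0.17, limma adjusted p = 0.0403). Both genes passed the adjusted threshold in 1 of the 6 fits that left out a library, that without MA replicate 3, and their adjusted p with the replicate block was 0.0877 and 0.109 (limma). With no filter on low values it was 0.0684 for Sult1a1 and 0.0838 for Plin4, and Plin4 was at 0.0544 and 0.0584 with pseudocounts of 0.1 and 0.01 (limma). Choroid plexus and red blood cell markers were higher in the same MA libraries, and their part in these results was not tested.

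Of the others with an unadjusted p under 0.05, Angptl4, an inhibitor of lipoprotein lipase, had a difference of 0.80, and Arrdc2, an arrestin-domain protein, one of 0.59. Mertk, a receptor kinase for the uptake of dead cells and synapses, and Klf15, a transcription factor of the family of Klf9, had differences of 0.38 and 0.22. Dusp1, a MAP kinase phosphatase and one of the genes on whose direction the sources differ, had one of -0.70, and Bcl6, a transcriptional repressor, one of -0.38. Errfi1, a feedback inhibitor of the EGF receptor, and Per1, a clock repressor, had differences of -0.32 and -0.29. The adjusted p of these 8 genes lay between 0.141 and 0.473 (limma). Dusp1 and Per1 are also induced by neuronal activity. Without MA replicate 3, 11 of the 32 were higher and 5 lower at the unadjusted threshold, which 23.3% of all tested genes then reached.

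**Figure D4:**
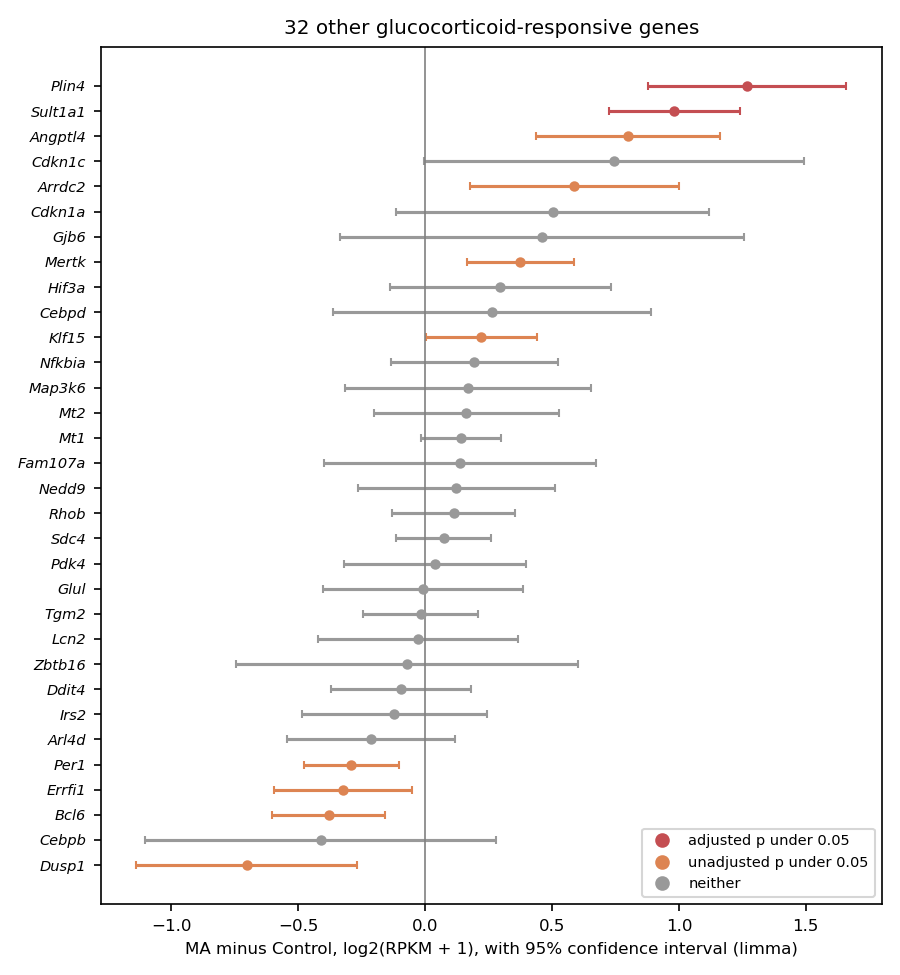
Difference of the group means (MA minus Control, log2 scale) of 32 other glucocorticoid-responsive genes, with limma's 95% confidence interval as bars. Plin4 at 1.27 and Sult1a1 at 0.98 pass the adjusted threshold, 8 further genes have an unadjusted p under 0.05, and 4 of those 8 lie below 0.

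Among 15 other stress peptides and their receptors, 12 had a row and 7 were tested, and 1, Crhr2, had an unadjusted p under 0.05. Crhr2 encodes the receptor of the urocortins, relatives of CRH, and is known from the choroid plexus as well as from neurons. It was 0.88, 0.80 and 0.87 on the log2 scale in Control replicates 1, 2 and 3 and 1.23, 1.54 and 2.01 in the MA replicates. All MA libraries were above all Control libraries. The difference was 0.74 (standard error 0.19, limma unadjusted p = 0.00565 and adjusted p = 0.257), opposite in sign to that of Crhr1. The summed choroid plexus markers were 64.8, 173 and 419 RPKM in Control replicates 1, 2 and 3 and 1774, 2305 and 5081 RPKM in the MA replicates. Most of that sum was Ttr, with a mean of 211 RPKM in Control and 3010.5 RPKM in MA. Ttr, Kcne2 and Kcnj13 were highest in MA replicate 3, and Kl, Folr1 and Clic6 in MA replicate 2. The part of choroid plexus tissue in the result for Crhr2 was not tested. Of 14 genes of steroid synthesis, inactivation and transport, 9 had a row and 8 were tested, with a median difference of -0.00095. Akr1c18, which encodes an enzyme that inactivates progesterone, was 1.99, 1.89 and 1.43 in Control and 0.44, 0.64 and 1.18 in MA replicates 1, 2 and 3. Its difference was -1.02 (standard error 0.23, limma unadjusted p = 0.00240 and adjusted p = 0.203), and it belongs to a family of similar genes between which reads could be split.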

How the data were processed

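RNA-seq libraries of the hippocampus of 3 Control and 3 MA mice were analysed. The study's methods name Hisat2, featureCounts and conversion to FPKM by gene length, while the submitters' processing notes name Bowtie 0.12.2 and the builds mm8 and mm9. The kits also differ between the labels and the methods. The table deposited by the authors holds log2 values, named as RPKM, with 1 shared maximum in all 6 columns, so the values had been logged and brought to a common distribution, steps the sources used here do not describe. Base 2 was read from the values, because their back-transformed sum weighted by exonic length was 1.78 to 1.88 times the total that RPKM implies, against at least 18.2 times with the natural logarithm. An offset of 1 was read from the lowest value, which was 0 in the Control libraries and in MA replicates 1 and 2. In MA replicate 3 no value was 0, and the lowest was 0.00021. Directions rest on the column names. These match the sample titles, but the sources used here differ on the direction of several immediate early genes, and the group names could not be checked from the data. Tools that make counts were not rerun, and no depth is known.

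Genes with at least 0.5 RPKM in at least 3 libraries were tested with limma 3.58.1 in R 4.3.3 (eBayes with trend), MA against Control, without covariates, with Benjamini-Hochberg adjustment. Differences of low genes are understated on this scale. The study's test, DESeq2, needs counts and was not used. The members, lists and tests were chosen with earlier results of these data known. From each list, tested genes with an unadjusted p under 0.05 are named, along with the gene most like each member. Hsd11b2, H6pd and the genes with a GRE window were named after their values were seen. Positions are those of GENCODE M21 on GRCm38, given for location only, as the sources used here name other builds. The fit was tested on simulated data with independent errors, for each gene of equal spread in all libraries. That test did not cover a library that stands apart, as MA replicate 3 does. The replicate numbers come from the titles, pairing of the mice is stated nowhere, and each mouse is 1 replicate. Alternatives were other pseudocounts (0.1 and 0.01), no filter, a mean of at least 5 RPKM, median centring, quantile normalization, no trend, sample quality weights, a replicate block and leaving out each library.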

Additional observations from a re-analysis of the deposited data

How the results depend on the processing

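Over 15 alternatives (14 for Crh and Crhr1, which fell below a mean of 5 RPKM), Hsd11b1, Crhr1, Crhbp, Nr3c1, Nr3c2, Fkbp5 and Sgk1 kept their direction. With no filter, a mean of at least 5 RPKM, no trend or the replicate block the difference is the same by construction. Direction could not change in those fits. For Hsd11b1, Crhr1 and Crhbp, whose groups did not overlap, it also could not change with other pseudocounts or sample quality weights. The same holds for these genes with a library left out. Crh turned to -0.015 without Control replicate 1 and to -0.0011 without MA replicate 1, Tsc22d3 to 0.0095 without Control replicate 2 and to 0.0084 without MA replicate 3, and Klf9 to 0.25 without MA replicate 3 and to 0.18 with sample quality weights. Without 1 library the ranges were -0.015 to 0.11 for Crh, -0.13 to 0.0095 for Tsc22d3 and -0.29 to 0.25 for Klf9. Members at an unadjusted p under 0.05 numbered 3, and 1 with no filter or with the replicate block, and 1 to 4 without 1 library. At an adjusted p under 0.05 there were 0, also without any 1 library, and 1 (Hsd11b1) with sample quality weights. Over all tested genes, 1392 had an unadjusted p under 0.05, 844 with a mean of at least 5 RPKM, 3504 with sample quality weights, 842 with the replicate block and 829 to 3103 without 1 library. At an adjusted p under 0.05 the numbers were 35, then 3 with no filter, 20, 586 and 15 under the same alternatives and 0 to 257 without 1 library. The lowest counts of 0 came without Control replicate 2, Control replicate 3 or MA replicate 2, and the highest without MA replicate 3. By list at the unadjusted threshold, the stress peptides numbered 1, and 0 with a mean of at least 5 RPKM, 2 without the trend or with the replicate block, 3 with sample quality weights and 1 to 2 without 1 library. The chaperones numbered 5, and 3 with the replicate block and 3 to 6 without 1 library. The responsive genes numbered 10, and 19 with sample quality weights and 8 to 16 without 1 library. The steroid genes numbered 1, and 0 with a mean of at least 5 RPKM, 2 with sample quality weights and 1 to 2 without 1 library. Causes were not tested. As a check of pairing, libraries with equal numbers were compared after subtracting group means, giving r = -0.197, -0.242 and -0.337 over genes, so the numbers gave no sign of pairing. With depth unknown, the counting error of the low values of Crh and Crhr1 cannot be given.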

Other observations

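Of 5 endothelial markers, 4 lay above Control in MA, 1 of them at an unadjusted p under 0.05 (limma), with summed levels of 64.9 to 68.8 RPKM in Control and 72.3 to 82.4 in MA. Oligodendrocyte markers summed to between 2889 and 3157 RPKM in Control and between 2712 and 3326 in MA, and 0 of 6 passed that threshold (limma). Astrocyte markers summed to between 461 and 503 RPKM in Control and between 341 and 553 in MA, with MA replicate 3 the lowest, and 1 of 6 passed it, lower in MA. Microglial markers summed to between 62.8 and 67.1 RPKM in Control and between 57.8 and 62.7 in MA, and 0 of 5 passed it.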
